A study of Rattus norvegicus with 10 samples.

Results

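The comparison of rat liver 4 h after a burn injury with sham liver used 4 of the 10 arrays of the series, the 2 arrays titled 4 h and the 2 control arrays titled 0 h, and covered all 8799 probe sets. The 4 h arrays held RNA from the liver of rats (Rattus norvegicus) taken 4 h after the injury, and the sham arrays held RNA from the liver of sham rats at 0 h. The other 6 arrays, 2 each at 1, 8 and 24 h after the burn, entered the estimate of the spread and 1 comparison between burn times. Strain, sex, age, burn size, anaesthesia and fluid treatment are not given in the sources used here. No sham array at 4 h was analysed here, so the burn and the time that passed, hour of the day included, cannot be told apart. Whether the arrays of one group stem from different animals is not stated in the labels. A p-value therefore sets a difference only against the spread between arrays within groups, pooled over all 5 groups. That spread may be technical.

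A severe burn releases stress hormones and inflammatory cytokines into the blood, and the liver is one of their main targets. Glucocorticoids, glucagon and catecholamines raise liver enzymes that turn amino acids into glucose precursors, and interleukin 6 and interleukin 1 raise the acute phase proteins that the liver secretes. Liver is also among the tissues with the strongest daily rhythm of gene expression. In that clock BMAL1 and its partner CLOCK switch on genes through E-boxes, the REV-ERB repressors encoded by Nr1d1 and Nr1d2 hold Bmal1 down through RORE sites, and DBP passes the rhythm on to output genes through D-boxes.

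Values were intensities on a linear scale that the authors had scaled to a common trimmed mean. Median intensity was 118.9 and 121.9 on the 4 h arrays, against 126.4 and 119.9 on the sham arrays. The 4 h arrays correlated with each other at 0.9534 and the sham arrays at 0.9483, and the correlations of 4 h with sham arrays ran from 0.9173 to 0.9272. The 11 hepatocyte markers had a summed intensity of 244249.3 and 290738 on the 4 h arrays, against 270194.3 and 313802.2 on the sham arrays, so the labelled tissue carried its defining genes in both groups. Values under a floor of 36.4, the median of the arrays' 25th percentiles, were raised to it before the log2 scale, and a fold against a group wholly under the floor is a lower bound, written with "at least". With 2 arrays a group, precision is limited by their number.

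At 4 h after the burn, 230 of 5285 probe sets tested differed from sham at a Benjamini-Hochberg adjusted p under 0.05 in limma, which is 4.35%. Of these, 125 were higher (2.37%) and 105 lower (1.99%), and they included 152 named genes. The change exceeded 2-fold for 194 called probe sets and 4-fold for 74, of which 34 were higher and 40 lower. Among the 30 genes with the largest changes, those for heme breakdown, a sodium pump subunit and a brake on glucose oxidation rose most, and a clock output factor, pancreatic enzymes, an esterase and a steroid-converting enzyme fell most. The median log2 change over all 5285 probe sets was -0.04. The groups did not overlap on any of the 230 called probe sets, and the same held for 45.9% of all probe sets tested. With each of the 4 arrays left out in turn the number of calls fell to 131 without the first sham array, 127 without the second, 130 without the first 4 h array and 125 without the second, and 88 probe sets were called in each of these fits. With only these 4 arrays in the model, 69 probe sets were called, 37 higher and 32 lower.

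**Figure D1:**
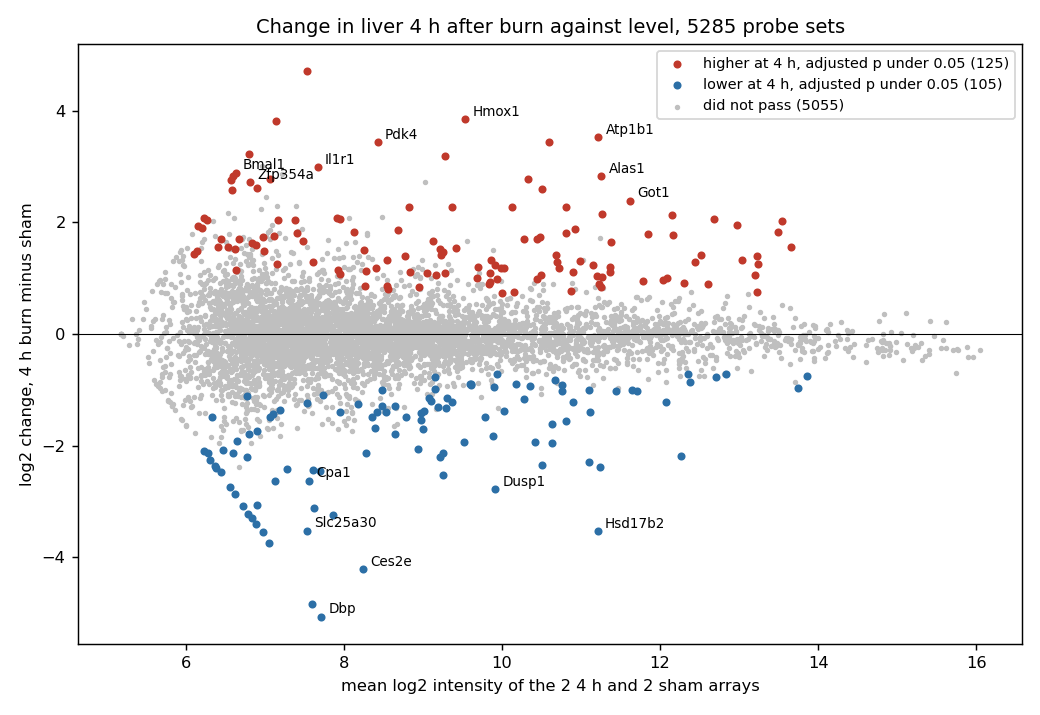
Log2 change of 4 h burn minus sham (vertical axis) against the mean log2 intensity of the 4 arrays (horizontal axis) for each of 5285 probe sets, with the 125 called higher in red, the 105 called lower in blue and the rest in grey. Dbp and Ces2e lie lowest among the labelled genes, and Hmox1 and Atp1b1 highest.

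The largest increases among named genes that stayed called without any 1 of the 4 arrays included Hmox1, Atp1b1, Pdk4, Il1r1, Bmal1 and Alas1. Hmox1 encodes heme oxygenase 1, the inducible enzyme that breaks heme down. Its intensity was 2663 and 2984 on the 4 h arrays, against 249 and 154 on the sham arrays (log2 change 3.85, SE 0.24, adjusted p = 0.000311, 14.4-fold), and a second probe set read 4919 and 5304 on the 4 h arrays, against 402 and 551 on the sham arrays (log2 change 3.44, SE 0.24, adjusted p = 0.000461). Both 4 h arrays lay far above both sham arrays on each probe set. Atp1b1, the beta subunit of the sodium-potassium pump, read 7423 and 8809 on the 4 h arrays, against 656 and 751 on the sham arrays (log2 change 3.53, SE 0.17, adjusted p = 0.000155, 11.5-fold), and its 2 other probe sets gave log2 changes of 3.20 and 2.77. Pdk4, the kinase that switches off pyruvate dehydrogenase in fasting, read 1247 and 1031 on the 4 h arrays, against 129.8 and 84.7 on the sham arrays (log2 change 3.44, SE 0.32, adjusted p = 0.0016). These genes were each more than 10-fold higher. The groups did not overlap, which the rule that named these genes required. Il1r1, the receptor that carries the interleukin 1 signal, read 572 and 577 on the 4 h arrays, against 82.5 and 63.3 on the sham arrays (log2 change 2.99, SE 0.22, adjusted p = 0.000523), while its 2 other tested probe sets gave log2 changes of 1.76 and 0.72 that did not pass (adjusted p = 0.0883 and 0.614). Alas1, which makes the first and rate-limiting step of heme synthesis in liver, read 6789 and 6249 on the 4 h arrays, against 702 and 1202 on the sham arrays (log2 change 2.83, SE 0.29, adjusted p = 0.00229). Hmox1 and Alas1 were in the list of 14 genes of heme breakdown, heme synthesis and iron, which had a median log2 change of -0.04. The other 12 genes did not pass, and 1.94% of all genes were called higher.

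Got1, the cytosolic aspartate aminotransferase, read 7213 and 7193 on the 4 h arrays, against 1493 and 1263 on the sham arrays (log2 change 2.39, SE 0.20, adjusted p = 0.000873), and Sds, the serine dehydratase that turns serine into pyruvate, read 9956 and 9075 on the 4 h arrays, against 2096 and 2264 on the sham arrays (log2 change 2.13, SE 0.15, adjusted p = 0.000474). Crem, a factor that acts at cyclic AMP response elements, read 996 and 1005 on the 4 h arrays, against 200.1 and 211 on the sham arrays (log2 change 2.28, SE 0.16, adjusted p = 0.000461), but 2 other probe sets of the gene gave log2 changes of 0.80 and 0.14 that did not pass. Cited2, a coregulator that competes for the coactivators CBP and p300, read 1548 and 1353 on the 4 h arrays, against 286 and 315 on the sham arrays (log2 change 2.27, SE 0.22, adjusted p = 0.00181), and its 2 other probe sets gave log2 changes of 1.79 and 1.15 that did not pass (adjusted p = 0.338 and 0.0979). Zfp354a, a zinc finger transcription factor, read 322 and 260.1 on the 4 h arrays, against 4.7 and 53 on the sham arrays (log2 change 2.72, SE 0.28, adjusted p = 0.00198), a size that depends on the floor because 1 sham array lay under it. Both coregulator and zinc finger gene were higher on both 4 h arrays, as that rule required. Cyp2b2, a cytochrome P450 that phenobarbital induces, read 12926 and 13929 on the 4 h arrays, against 2899 and 3529.7 on the sham arrays (log2 change 2.07, SE 0.16, adjusted p = 0.000733), on a probe set that its near-identical relative Cyp2b1 may share. A second Cyp2b2 probe set read 6720 and 7111 on the 4 h arrays, against 3992 and 3363 on the sham arrays (log2 change 0.92, adjusted p = 0.0208), a call that ended without any 1 of the 4 arrays (adjusted p = 0.0524 to 0.114). Pgk1, a glycolytic kinase, read 2564 and 2369 on the 4 h arrays, against 426 and 609 on the sham arrays (log2 change 2.27, SE 0.22, adjusted p = 0.00181), while its other tested probe set read 1541 and 1487 on the 4 h arrays, against 1271 and 1248 on the sham arrays (log2 change 0.27, adjusted p = 0.449). Pvr, a cell adhesion receptor, was at least 4.23-fold higher, and Polg2, the accessory subunit of the mitochondrial DNA polymerase, 4.19-fold. The calls of Alas1 on this probe set and of Pgk1 ended with only these 4 arrays in the model (adjusted p = 0.0603 and 0.0569), and that of Pvr ended with a floor at the arrays' 50th percentile (adjusted p = 0.116) and with an intensity trend (0.0643).

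**Figure D2:**
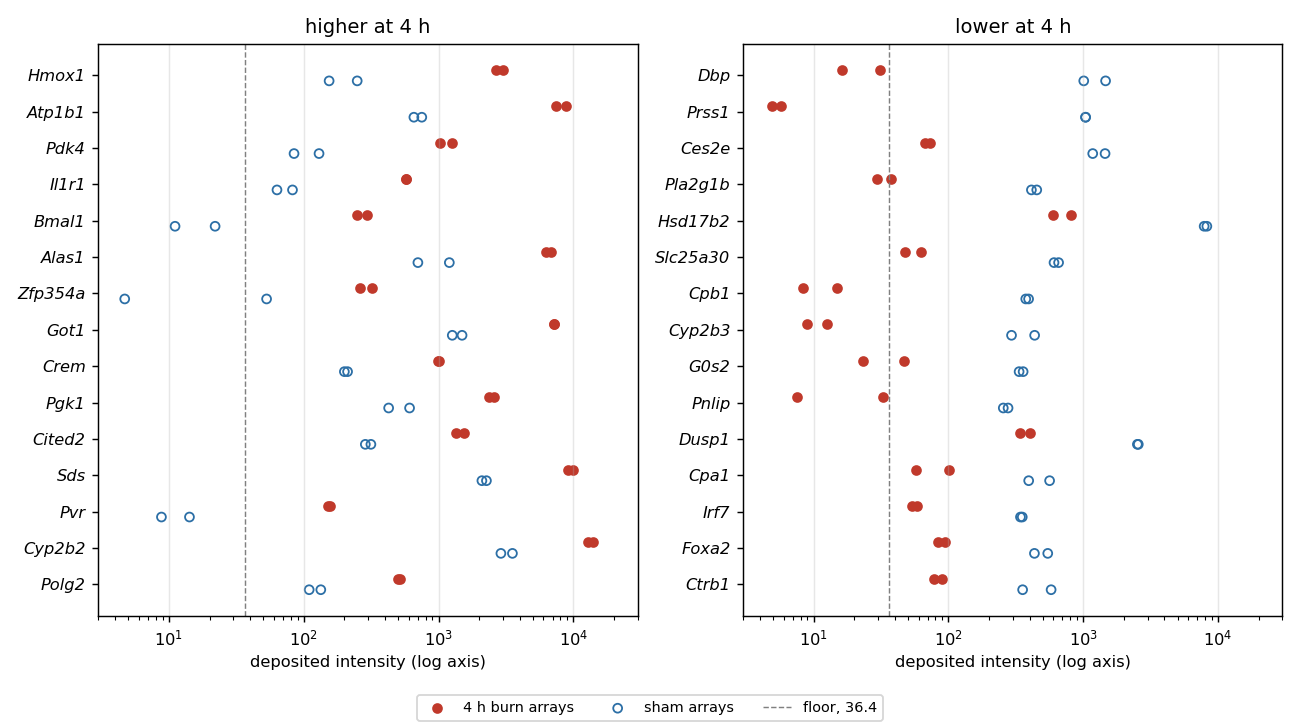
Deposited intensity on a log axis for the 15 named genes with the largest increase (left) and the 15 with the largest decrease (right), with each 4 h burn array as a filled red point, each sham array as an open blue point and the floor of 36.4 as a dashed line. The 2 groups do not overlap for any of the 30 genes, which the rule that chose them required. Both 4 h arrays lie under the floor for Dbp, Prss1, Cpb1, Cyp2b3 and Pnlip.

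Among the 15 largest decreases, 6 were genes for enzymes of pancreatic juice and are described with the cell type markers. Of the others, Dbp, described with the clock genes, fell most. Ces2e, a liver carboxylesterase, read 73.2 and 67.3 on the 4 h arrays, against 1450.2 and 1175 on the sham arrays (log2 change -4.22, SE 0.42, adjusted p = 0.0019, 18.6-fold lower). Hsd17b2, the 17-beta-hydroxysteroid dehydrogenase that inactivates estradiol and testosterone, read 598 and 810.2 on the 4 h arrays, against 7878 and 8249 on the sham arrays (log2 change -3.53, SE 0.18, adjusted p = 0.000185, 11.6-fold lower). Slc25a30, a mitochondrial carrier, read 62.6 and 47.7 on the 4 h arrays, against 656 and 606 on the sham arrays (log2 change -3.53, SE 0.29, adjusted p = 0.000889). G0s2, an inhibitor of the lipase that opens stored triglyceride, read 23.1 and 46.7 on the 4 h arrays, against 334 and 358 on the sham arrays (log2 change -3.07, SE 0.18, adjusted p = 0.00027), with 1 of the 4 h arrays under the floor. Every array of the 4 h group lay below every sham array for these genes, which the rule that named them required. Irf7, the interferon regulatory factor that amplifies the type I interferon response, read 58.9 and 53.6 on the 4 h arrays, against 342 and 353 on the sham arrays (log2 change -2.63, SE 0.17, adjusted p = 0.000322), and its other probe set gave -0.85 (adjusted p = 0.408). Foxa2, a transcription factor that opens liver enhancers, read 83.5 and 94.3 on the 4 h arrays, against 545 and 434 on the sham arrays (log2 change -2.45, SE 0.20, adjusted p = 0.000923). Dusp1, a phosphatase that switches off stress-activated MAP kinases, read 340.1 and 399.7 on the 4 h arrays, against 2558 and 2519 on the sham arrays (log2 change -2.78, SE 0.21, adjusted p = 0.000637), and its 2 other probe sets gave -2.52 and -1.94, both called. All 3 Dusp1 probe sets moved the same way. Cyp2b3 fell on 1 probe set to 8.9 and 12.5 on the 4 h arrays, against 294 and 436 on the sham arrays (at least 9.82-fold lower), while its 2 brighter probe sets gave log2 changes of -0.32 and -0.29 that did not pass.

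Among the clock genes, Bmal1 rose and Dbp and Nr1d1 fell. Of 8 clock genes tested, 1 rose and 2 fell, beside 1.94% higher and 1.88% lower among 3143 genes taken with 1 probe set each, and the other 5 did not pass. Bmal1, the activator of the loop, read 295 and 248 on the 4 h arrays, against 11.1 and 22 on the sham arrays (log2 change 2.89, SE 0.15, adjusted p = 0.000185). Both sham arrays lay under the floor, so Bmal1 was at least 7.43-fold higher. A second Bmal1 probe set that the filter on dim probe sets removed read 142 and 60.9 on the 4 h arrays, against 48.3 and 83.6 on the sham arrays, and overlapped. Dbp, the output factor that BMAL1 and CLOCK drive, read 31.2 and 16.1 on the 4 h arrays, against 1008 and 1463 on the sham arrays (log2 change -5.06, SE 0.28, adjusted p = 0.000213). Both 4 h arrays lay under the floor, so Dbp was at least 33.4-fold lower, and its other probe set fell as well (log2 change -3.74, SE 0.22, adjusted p = 0.00027). Nr1d1, the repressor REV-ERB alpha, read 381 and 348 on the 4 h arrays, against 849 and 826 on the sham arrays (log2 change -1.20, SE 0.17, adjusted p = 0.00932). Its call ended without either sham array or without the second 4 h array (adjusted p = 0.0558 to 0.0634), and its other probe set gave -1.61 (adjusted p = 0.266).

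The remaining clock genes differed less. Bhlhe40, a repressor of BMAL1 and CLOCK, read 275 and 277 on the 4 h arrays, against 519.9 and 447 on the sham arrays (log2 change -0.81, adjusted p = 0.116). Its groups did not overlap, as for 45.9% of all probe sets tested. Nr1d2, the second REV-ERB gene, read 221 and 125 on the 4 h arrays, against 255 and 249.5 on the sham arrays (log2 change -0.60, adjusted p = 0.51). Among the D-box factors related to Dbp, Tef gave a log2 change of -0.01 (SE 0.22) and Hlf 0.13 (SE 0.38), and the kinase gene Csnk1d gave 0.15 (SE 0.17). Whether the change of Dbp differed from those of Tef and Hlf was not tested.

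The bases upstream of the start sites of the 3 called clock genes are shown because the loop described above acts through short motifs there. They are the 250 bases before each start, read 5′ to 3′ on the gene's strand from RefSeq's promoter table for build GRCr8, with matches to a searched motif in capitals. Bmal1 is on the plus strand at chr1:176766078-176766327, Dbp on the plus strand at chr1:105312006-105312255, and Nr1d1 on the minus strand at chr10:84229455-84229704.
Bmal1: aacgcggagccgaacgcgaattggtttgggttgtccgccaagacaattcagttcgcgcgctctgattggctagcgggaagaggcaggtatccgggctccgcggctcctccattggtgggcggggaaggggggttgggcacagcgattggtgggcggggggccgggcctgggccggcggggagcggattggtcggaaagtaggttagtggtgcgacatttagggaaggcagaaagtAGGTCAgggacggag
Dbp: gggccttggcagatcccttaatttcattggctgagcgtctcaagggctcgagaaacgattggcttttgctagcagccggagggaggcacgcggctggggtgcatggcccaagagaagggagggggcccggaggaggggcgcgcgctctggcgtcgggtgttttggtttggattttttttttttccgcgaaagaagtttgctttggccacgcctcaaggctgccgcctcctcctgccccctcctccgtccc
Nr1d1: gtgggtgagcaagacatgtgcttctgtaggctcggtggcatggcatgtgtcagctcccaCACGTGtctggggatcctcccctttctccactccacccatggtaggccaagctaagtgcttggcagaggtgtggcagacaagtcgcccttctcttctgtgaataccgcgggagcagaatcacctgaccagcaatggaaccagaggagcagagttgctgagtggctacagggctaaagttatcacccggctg
Both strands were searched for the E-box CACGTG, the D-box TTATGTAA or TTACGTAA (TTACATAA is the first on the other strand) and the RORE core AGGTCA. The Bmal1 bases held 1 RORE core, at positions -15 to -10 before the start, and the Nr1d1 bases held 1 E-box, at positions -191 to -186. A second Nr1d1 start in the table and the Dbp start had no match within these 250 bases. Among 33469 promoters of the table searched the same way, 14.1% held the RORE core, 5.59% the E-box and 0.932% a D-box.

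The list of genes that glucocorticoids are known to induce had the highest median change of the 28 process lists. The lists were chosen with earlier results of these data known, so ranks among them describe these data and are not a test. Of 14 tested, 6 rose, 1 fell and 7 did not pass, beside 1.94% of all genes higher and 1.88% lower. Their median log2 change was 0.77, beside -0.04 over all genes. In 9 of the 14, both 4 h arrays lay above both sham arrays, beside 19.6% of all genes and 20.1% of all probe sets. Tdo2, the first enzyme of tryptophan breakdown, read 9068 and 8048 on the 4 h arrays, against 2582 and 2387 on the sham arrays (log2 change 1.78, SE 0.16, adjusted p = 0.0014). Tat, the tyrosine-degrading aminotransferase, read 15003 and 14988 on the 4 h arrays, against 6053 and 6476 on the sham arrays (log2 change 1.26, SE 0.14, adjusted p = 0.00316). Igfbp1, a secreted binding protein of insulin-like growth factors, read 15099 and 15906 on the 4 h arrays, against 5989.7 and 5825 on the sham arrays (log2 change 1.39, SE 0.15, adjusted p = 0.00271). With Got1, these 4 stayed called without any 1 of the 4 arrays. Klf9 and Cebpb, both transcription factors, had log2 changes of 1.06 and 1.02, and each of the 4 arrays, left out in turn, ended their calls (adjusted p = 0.0621 to 0.0965 for Klf9 and 0.0558 to 0.104 for Cebpb). Dusp1 was the member that fell.

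Enzymes that break amino acids down shared 3 of their risen members with the hormone-induced list. Of 37 tested, 5 rose, 1 fell and 31 did not pass, with a median of -0.13. For this list and the urea cycle, 1.94% of all genes were called higher and 1.88% lower. In 9 of the 37 both 4 h arrays lay above both sham arrays and in 15 below, beside 19.6% and 25.8% of all genes. The members that rose were Got1, Tdo2, Tat, Sds and Agxt, an alanine-glyoxylate aminotransferase that read 8232 and 8793 on the 4 h arrays, against 4639 and 4458 on the sham arrays (log2 change 0.90, SE 0.16, adjusted p = 0.0211). Its relative Agxt2 was the member that fell, with 605 and 543 on the 4 h arrays, against 1115 and 1015 on the sham arrays (log2 change -0.89, SE 0.15, adjusted p = 0.0206). Sds counted in this list by a brighter probe set than the one given above. Leaving out at least 1 of the 4 arrays ended the Sds call on that brighter probe set. Each of the 4 arrays, left out in turn, ended the calls of Agxt (adjusted p = 0.0837 to 0.112) and Agxt2 (0.0676 to 0.108). In the urea cycle, which disposes of the nitrogen, Arg1 read 13200.4 and 11698 on the 4 h arrays, against 6896 and 7941 on the sham arrays (log2 change 0.75, SE 0.16, adjusted p = 0.0494), and its call ended without any 1 of the 10 arrays (adjusted p = 0.0791 to 0.186). The other urea cycle genes did not pass: Asl had a log2 change of 0.72 (adjusted p = 0.0759), Ass1 0.53, Cps1 0.05 and Otc -0.07.

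**Figure D3:**
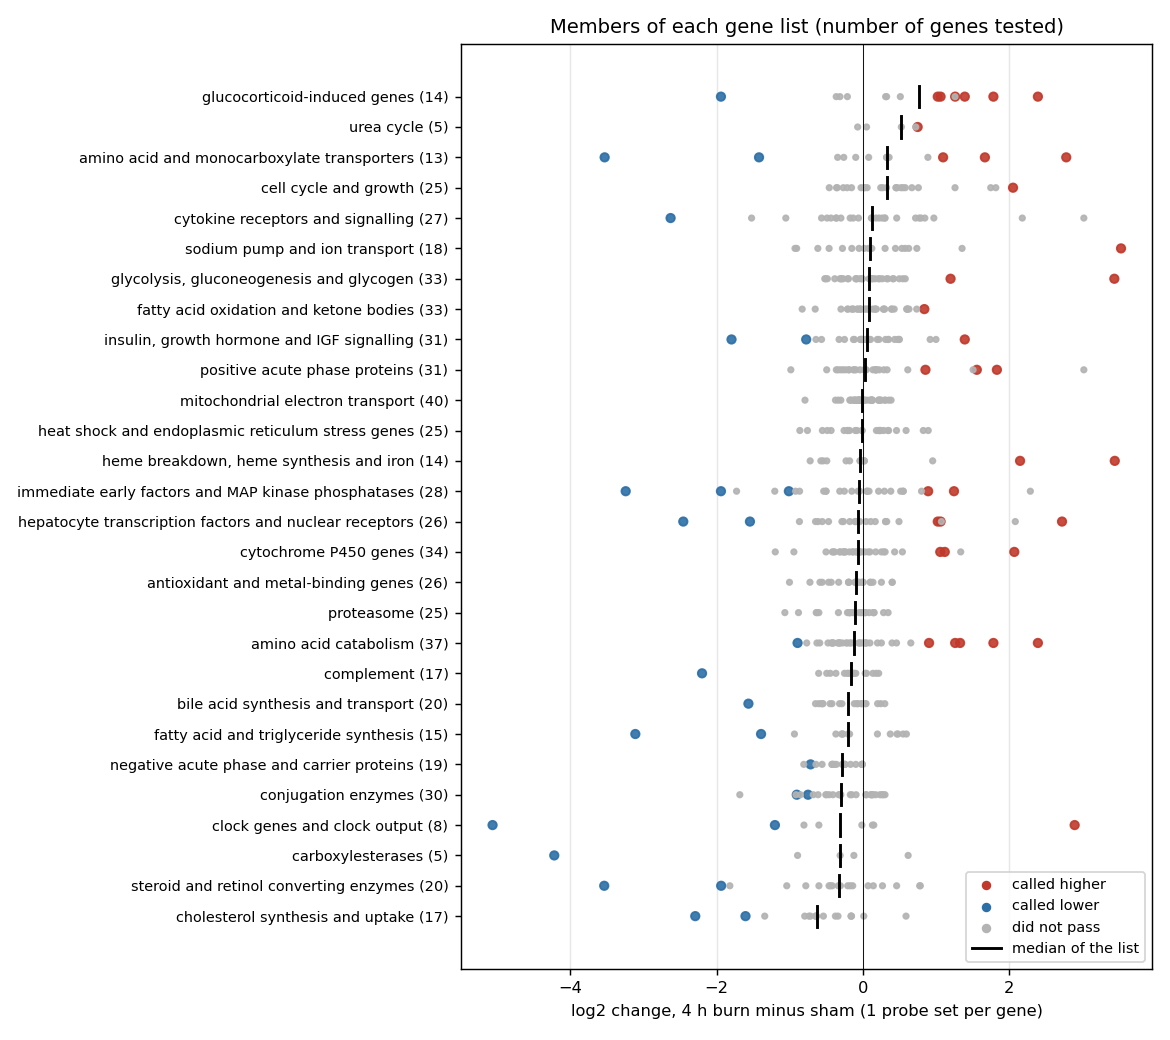
Log2 change of 4 h burn minus sham for each tested gene of 28 process lists, 1 probe set per gene, with called genes in red (higher) or blue (lower), other genes in grey and the median of each list as a black bar. The list of glucocorticoid-induced genes has the highest median, 0.77, and the list of cholesterol synthesis and uptake the lowest, -0.63. The lists were chosen with earlier results of these data known.

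Among genes of fuel use, 3 rose with 1 probe set per gene, beside 1.94% of all genes. In the list of glycolysis, gluconeogenesis and glycogen, Pdk4 and Aldoa rose and 31 of 33 genes did not pass (median 0.08), among them Pgk1, which rose on another probe set as given above. Aldoa, an aldolase of glycolysis, read 1233 and 1276 on the 4 h arrays, against 546 and 548 on the sham arrays (log2 change 1.20, SE 0.14, adjusted p = 0.00389). In fatty acid oxidation, Cpt1a, the carrier enzyme that lets long fatty acids into mitochondria, read 3221 and 3298 on the 4 h arrays, against 1733 and 1916 on the sham arrays (log2 change 0.84, SE 0.16, adjusted p = 0.0315), and 32 of 33 genes did not pass (median 0.08). The Cpt1a call ended without any 1 of the sham, 1 h, 4 h or 24 h arrays (adjusted p = 0.0623 to 0.141). Pex11a, which helps peroxisomes divide, rose on a probe set other than its brightest, with 334 and 299.9 on the 4 h arrays, against 96.4 and 85.1 on the sham arrays (log2 change 1.81, SE 0.15, adjusted p = 0.001).

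Among genes that build lipids, 4 fell, beside 1.88% of all genes. Of 17 genes of cholesterol synthesis and uptake, 2 fell and 15 did not pass, with a median of -0.63, the lowest of the 28 process lists. In 13 of the 17, both 4 h arrays lay below both sham arrays, beside 25.8% of all genes. Fdft1, squalene synthase, read 969 and 849.5 on the 4 h arrays, against 2988 and 2546 on the sham arrays (log2 change -1.60, SE 0.16, adjusted p = 0.00198). Msmo1, a sterol methyl oxidase, read 1334 and 742 on the 4 h arrays, against 5103 and 4641 on the sham arrays (log2 change -2.29, SE 0.30, adjusted p = 0.00728), and its call on this probe set ended without the first sham array (adjusted p = 0.052), while a second probe set stayed called (log2 change -2.34, SE 0.16). Idi1 had a log2 change of -1.34, Mvd -0.80 and Srebf1 -0.74, none of which passed. Insig1, which holds back the factors that drive this list, rose on 1 of its probe sets, with 6622 and 5719 on the 4 h arrays, against 2859 and 3278 on the sham arrays (log2 change 1.01, SE 0.17, adjusted p = 0.0191), although each of the 4 arrays ended that call (adjusted p = 0.0596 to 0.1).

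Of 15 genes of fatty acid and triglyceride synthesis, 2 fell and 13 did not pass (median -0.20). Acly, which supplies acetyl-CoA in the cytosol, read 1405 and 1324 on the 4 h arrays, against 3494 and 3665 on the sham arrays (log2 change -1.39, SE 0.16, adjusted p = 0.00316). Gpam, the mitochondrial enzyme of the first step of triglyceride synthesis, read 65 and 69.2 on the 4 h arrays, against 671 and 499 on the sham arrays (log2 change -3.11, SE 0.54, adjusted p = 0.0212). Each of the 4 arrays ended the Gpam call on that probe set (adjusted p = 0.088 to 0.112), and 2 further Gpam probe sets with 4 h arrays at or near the floor were also lower (adjusted p = 0.0046 and 0.00121).

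Among enzymes that handle bile acids, drugs and steroids, with 1 probe set per gene, 6 fell outside the P450 list and 3 rose within it. Over all genes, 1.88% fell and 1.94% rose. Amacr, a racemase of bile acid synthesis, read 1199 and 907 on the 4 h arrays, against 2869.5 and 3312 on the sham arrays (log2 change -1.56, SE 0.18, adjusted p = 0.00389), and the other 19 bile acid genes did not pass. Of 20 steroid and retinol converting enzymes, Hsd17b2 and Adh4 fell and 18 did not pass (median -0.32). Adh4, an alcohol dehydrogenase active on retinol, read 398 and 357 on the 4 h arrays, against 1388 and 1499.9 on the sham arrays (log2 change -1.94, SE 0.15, adjusted p = 0.000612). Among 5 carboxylesterases Ces2e fell and the others did not pass. Of 30 conjugation enzymes, Ugdh and Sult2a1 fell and 28 did not pass (median -0.31). Ugdh, which makes the sugar donor of glucuronidation, had a log2 change of -0.90, and the sulfotransferase gene Sult2a1 one of -0.75. The Ugdh call ended without any 1 of the 4 arrays (adjusted p = 0.0633 to 0.0846) and the Sult2a1 call without any 1 of the 10 (0.0751 to 0.191), and near-identical Sult2a copies may share probes. Gstt2, a glutathione transferase, and Sult2a2 passed on probe sets other than their brightest (log2 changes -1.16 and -1.37), where the Gstt2 call ended without any array other than the second 4 h array (adjusted p = 0.0604 to 0.183) and the Sult2a2 call without the second sham or the first 4 h array (0.0752 and 0.0822). Of 34 cytochrome P450 genes, 3 rose and 31 did not pass (median -0.07). Beside Cyp2b2 these were Cyp17a1 (log2 change 1.06) and Por (1.12), the reductase that feeds electrons to P450 enzymes, and the Cyp17a1 call ended without any 1 of the 4 arrays (adjusted p = 0.0614 to 0.115). The Por call ended without any 1 of the sham, 4 h, 8 h or 24 h arrays (adjusted p = 0.0545 to 0.188).

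Of 31 positive acute phase proteins, 3 rose and 28 did not pass, beside 1.94% of all genes that rose, and their median log2 change was 0.03. Serpina3n, a protease inhibitor of the acute phase, read 20339 and 24066 on the 4 h arrays, against 7423 and 7623 on the sham arrays (log2 change 1.56, SE 0.15, adjusted p = 0.00188). Agt, the precursor of angiotensin, read 18571 and 25295 on the 4 h arrays, against 5412 and 6862 on the sham arrays (log2 change 1.83, SE 0.20, adjusted p = 0.00316). Both stayed called without any 1 of the 4 arrays. Lbp, which binds bacterial lipopolysaccharide, had a log2 change of 0.85 and lost its call without any 1 of the 4 arrays (adjusted p = 0.0611 to 0.114). A2m and Fga passed on probe sets other than their brightest, with log2 changes of 1.33 and 1.49 for A2m and 0.97 for Fga, and leaving out 1 array ended these calls (adjusted p up to 0.107 for A2m and 0.112 for Fga, the first sham and the first 4 h array among them for all 3). Il1rn, the interleukin 1 receptor antagonist, read 363 and 351 on the 4 h arrays, against 50.1 and 38.7 on the sham arrays (log2 change 3.02, SE 0.73) and did not pass (adjusted p = 0.0742).

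Of 19 negative acute phase and carrier proteins, Mug1, a protease inhibitor, fell and 18 did not pass, with a median of -0.28. For this and the other lists here, 1.88% of all genes were called lower. In 11 of the 19 both 4 h arrays lay below both sham arrays, beside 25.8% of all genes. Mug1 read 5938 and 5490.1 on the 4 h arrays, against 8790.2 and 9991 on the sham arrays (log2 change -0.71, SE 0.15, adjusted p = 0.0448), and any 1 of the 10 arrays ended the call (adjusted p = 0.0725 to 0.2). Among 17 complement genes, Cfd fell, with 46 and 56.8 on the 4 h arrays, against 291 and 189 on the sham arrays (log2 change -2.20, SE 0.28, adjusted p = 0.00585). Cfd, complement factor D, is known as a product of fat cells and was also the called gene of 3 adipose markers tested. The other adipose markers tested, Lpl and Lep, had log2 changes of 0.18 and -0.05 and did not pass. Of 27 genes of cytokine receptors and signalling, Irf7 fell and 26 did not pass (median 0.12), among them Il1r1, which rose on another probe set as given above. Stat3, which carries the interleukin 6 signal, read 266 and 145 on the 4 h arrays, against 36.1 and 51.9 on the sham arrays (log2 change 2.18, adjusted p = 0.0522). Il6r, the interleukin 6 receptor, read 1029.5 and 911 on the 4 h arrays, against 525 and 466 on the sham arrays (log2 change 0.97, adjusted p = 0.0555). Neither passed, and both lacked overlap, as did 45.9% of all probe sets tested. In this list both 4 h arrays lay above both sham arrays for 9 genes and below for 9.

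Immediate early factors and MAP kinase phosphatases moved both ways. Of 28, 2 rose, 3 fell and 23 did not pass (median -0.06), beside 1.94% of all genes higher and 1.88% lower. Dusp1 fell, as did Dusp6, the phosphatase of the ERK kinases, which read 51.2 and 112 on the 4 h arrays, against 782 and 655 on the sham arrays (log2 change -3.24, SE 0.51, adjusted p = 0.0158). Zfp36l1, which speeds the decay of AU-rich messages, had a log2 change of -1.01. Gadd45a and Btg1, genes of growth arrest, had log2 changes of 0.89 and 1.24. Leaving out either sham array or the first 4 h array ended the Dusp6 call (adjusted p = 0.0752 to 0.0822), and the Gadd45a call without any 1 of the 4 arrays (0.0556 to 0.115). Any 1 of the sham, 4 h or 8 h arrays ended the calls of Btg1 (adjusted p = 0.0538 to 0.15) and Zfp36l1 (0.0538 to 0.184), and the 1 h arrays ended that of Zfp36l1 too. On probe sets other than the brightest, Ier3 was lower (247 and 236 on the 4 h arrays, against 1059.6 and 944 on the sham arrays; log2 change -2.05, SE 0.17, adjusted p = 0.001), and Crem and Nr4a1 were higher. The Nr4a1 call (log2 change 2.59) ended without any 1 of the 4 arrays or of the 1 h arrays (adjusted p = 0.0533 to 0.136).

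Of 26 hepatocyte transcription factors and nuclear receptors, Zfp354a, Klf9 and Cebpb rose, Foxa2 and Onecut1 fell, and 21 did not pass (median -0.06). The shares over all genes were 1.94% higher and 1.88% lower. Onecut1, which acts beside the Foxa factors in liver, read 356 and 244 on the 4 h arrays, against 832 and 885 on the sham arrays (log2 change -1.54, SE 0.23, adjusted p = 0.0137), and its call ended without either sham array or the second 4 h array (adjusted p = 0.0621 to 0.0806). Foxa3, the third Foxa gene, read 709 and 705 on the 4 h arrays, against 336 and 337 on the sham arrays (log2 change 1.07, adjusted p = 0.0536), the opposite side from Foxa2. The difference between Foxa2 and Foxa3 was not tested.

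In insulin, growth hormone and IGF signalling, Igfbp1 rose, Cish and Erbb3 fell, and 28 of 31 genes did not pass (median 0.05). Shares over all genes were 1.94% higher and 1.88% lower. Cish, a feedback inhibitor that growth hormone induces, read 269.6 and 171 on the 4 h arrays, against 773 and 717 on the sham arrays (log2 change -1.80, SE 0.29, adjusted p = 0.0163). Erbb3, a receptor tyrosine kinase, had a log2 change of -0.77. The Cish call ended without either sham array or the second 4 h array (adjusted p = 0.0781 to 0.0814), and the Erbb3 call without any 1 of the 10 arrays (0.0708 to 0.171). Ptpn1, a phosphatase of the insulin receptor, was higher on 1 of its probe sets (log2 change 2.08), a call that ended without any 1 of the 4 arrays (adjusted p = 0.0673 to 0.0939).

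Among 13 amino acid and monocarboxylate transporters, 3 rose, 2 fell and 8 did not pass. For this and the lists that follow here, 1.94% of all genes were called higher and 1.88% lower. Slc16a6, of the monocarboxylate carrier family, read 371 and 331 on the 4 h arrays, against 71.6 and 31.6 on the sham arrays (log2 change 2.78, SE 0.39, adjusted p = 0.00909), with 1 sham array under the floor, and its call ended without either 4 h array (adjusted p = 0.0556 to 0.0676). Slc6a6, the taurine transporter, and Slc7a2, a carrier of cationic amino acids, had log2 changes of 1.67 and 1.10. Slc6a9, a glycine transporter, fell by 1.42 on the log2 scale, and the other member that fell was Slc25a30, the mitochondrial carrier given above. Leaving out the first sham array or 1 of the 4 h arrays ended the Slc6a6 call (adjusted p = 0.052 to 0.0822), the second sham array or 1 of the 4 h arrays that of Slc7a2 (0.0932 to 0.108), and any 1 of the 4 arrays that of Slc6a9 (0.0625 to 0.108). Atp1b1 was the called gene of 18 sodium pump and ion transport genes, and its relative Atp1b3 had a log2 change of 0.63 (adjusted p = 0.2). Of 25 cell cycle and growth genes H19, an imprinted noncoding RNA, rose with 278 and 308 on the 4 h arrays, against 54.7 and 90.9 on the sham arrays (log2 change 2.05, SE 0.27, adjusted p = 0.00667), a call that ended without the second 4 h array (adjusted p = 0.0533). On probe sets other than the brightest, the cyclin gene Ccnd1 was lower (log2 change -1.15) and Top2a, a topoisomerase of dividing cells, higher (1.70), and any 1 of the 4 arrays ended the calls of Ccnd1 (adjusted p = 0.0975 to 0.201) and Top2a (0.114 to 0.148). Leaving out a 1 h or 24 h array also ended the Ccnd1 call, and leaving out an 8 h array the Top2a call.

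In 4 lists of general stress and housekeeping limma called no member with 1 probe set per gene, where 1.94% of all genes were called higher and 1.88% lower. They were 25 heat shock and endoplasmic reticulum stress genes (7 at an unadjusted p under 0.05), 26 antioxidant and metal-binding genes (3), 25 proteasome genes (5) and 40 genes of mitochondrial electron transport (0), beside 918 of all 5285 probe sets at an unadjusted p under 0.05. Their medians were -0.01, -0.09, -0.11 and -0.01. Sod1, the copper-zinc superoxide dismutase, passed in opposite directions on 2 other probe sets, with 7405 and 10216 on the 4 h arrays, against 3439 and 3659 on the sham arrays on 1 (log2 change 1.29) and 2426 and 3318 on the 4 h arrays, against 6608 and 6539.6 on the sham arrays on the other (-1.21). The brightest Sod1 probe set gave -0.09, and either sham array, left out, ended both calls (adjusted p up to 0.0814 for the rise and 0.0884 for the fall). Gclm, which regulates glutathione synthesis, passed on 1 probe set (log2 change -1.48), but each array other than the first 4 h array, left out in turn, ended that call (adjusted p up to 0.188).

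Over the 28 process lists, 54 genes were called, and 26 of them stayed called with each of the 4 arrays left out in turn. With only the 4 arrays in the model 18 were called: Adh4, Alas1, Atp1b1, Bmal1, Ces2e, Cyp2b2, Dbp, Dusp1, Foxa2, Got1, Gpam, Hmox1, Hsd17b2, Irf7, Pdk4, Slc25a30, Tdo2 and Zfp354a. The other 36 were not called in that fit.

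Genes of the exocrine pancreas, which makes digestive enzymes, formed the cell type marker list with the most calls. Of 21 pancreatic acinar markers tested, 9 fell and 12 did not pass, beside 1.88% of all genes called lower. Their median log2 change was -1.20, and in 16 both 4 h arrays lay below both sham arrays, beside 25.8% of all genes. Prss1, a trypsinogen, read 5.7 and 4.9 on the 4 h arrays, against 1040.3 and 1039 on the sham arrays (log2 change -4.84, SE 0.16, adjusted p = 4.8e-05), at least 28.6-fold lower. Cpb1, procarboxypeptidase B, read 14.9 and 8.4 on the 4 h arrays, against 374 and 393 on the sham arrays, at least 10.5-fold lower, and Pla2g1b, the pancreatic phospholipase, read 29.5 and 37.2 on the 4 h arrays, against 412 and 452 on the sham arrays. All 3 were at or under the floor on both 4 h arrays, except for Pla2g1b on 1 of them. Pnlip, pancreatic lipase, read 312 and 247 on the 4 h arrays, against 1293 and 1271 on the sham arrays on its brighter probe set (log2 change -2.21, SE 0.20, adjusted p = 0.00148). Cela2a, an elastase, read 292 and 294 on the 4 h arrays, against 1343 and 1212 on the sham arrays (log2 change -2.12, SE 0.19, adjusted p = 0.0014), and Amy2a3, pancreatic amylase, read 991 and 664 on the 4 h arrays, against 3015 and 3237 on the sham arrays (log2 change -1.95, SE 0.23, adjusted p = 0.00389). Cpa1, Ctrb1 and Prss3b also fell, with log2 changes of -2.63, -2.43 and -2.09. The Prss3b call ended without any 1 of the 4 arrays (adjusted p = 0.0806 to 0.112), and with only the 4 arrays in the model the calls of Cpa1, Ctrb1 and Amy2a3 ended (adjusted p = 0.0891, 0.0699 and 0.0844).

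In time order the summed intensity of 22 acinar markers was 10779 and 11196.1 on the sham arrays, 48040.8 and 50989.9 at 1 h, 2882.1 and 2678.3 at 4 h, 14862.6 and 14938 at 8 h, and 2591.5 and 3326.1 at 24 h. The 2 arrays of each group lay close together, and both 4 h arrays lay below all sham, 1 h and 8 h arrays and within the range of the 24 h arrays. In these bulk samples fewer cells of a type and less RNA per cell cannot be told apart. Whether pancreas was taken along with the liver is not stated in the labels and was not tested. The part of pancreatic RNA in other results was not tested. With these marker genes left out 216 probe sets were called. That fit only removes the named markers, so it cannot show the part of pancreatic RNA in the other calls.

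Of 11 hepatocyte markers Tat rose and 10 did not pass. For this and the other marker lists here, 1.94% of all genes were called higher and 1.88% lower. In limma no marker passed among 8 of Kupffer cells and macrophages (2 at an unadjusted p under 0.05), 2 of neutrophils (0), 7 of lymphocytes (0), 5 of endothelium (2), 8 of stellate cells and fibroblasts (1), 4 of bile duct (0), 5 of red cells (0), 5 of skeletal muscle (0) and 2 of pancreatic islets (0). The summed red cell markers were 39723.9 and 44335.8 on the 4 h arrays, against 51022.6 and 53316.6 on the sham arrays. Summed Kupffer cell and macrophage markers were 5438 and 5764.8 on the 4 h arrays, against 6417.4 and 6751 on the sham arrays. Both sums were lower on each 4 h array, and their part in the calls was not tested.

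**Figure D4:**
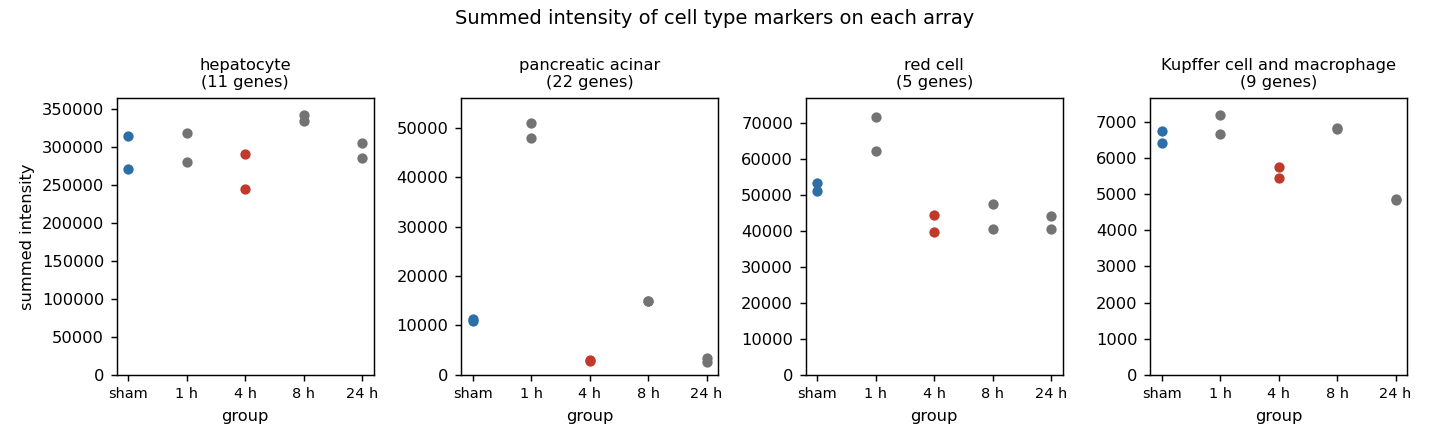
Summed deposited intensity of the hepatocyte, pancreatic acinar, red cell, and Kupffer cell and macrophage markers on each array, in time order with sham first, each point 1 array and each vertical axis starting at 0. The acinar sum is 2882.1 and 2678.3 on the 4 h arrays and 10779 and 11196.1 on the sham arrays, while the hepatocyte sums of these groups overlap.

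The 4 h livers were also set against the mean of the other burn times, a comparison that uses no sham array. It called 259 probe sets (4.9%), 142 higher (2.69%) and 117 lower (2.21%). The named genes with the largest differences whose 4 h arrays lay beyond all 6 other burn arrays included 5 in each direction. Bmal1 was under the floor on all 6 of those arrays, so it was at least 7.43-fold higher at 4 h (log2 difference 2.89, SE 0.12, adjusted p = 5.38e-05). Atp1b1 read 7423 and 8809 at 4 h, against 1571 and 1683 at 1 h, 855.6 and 782 at 8 h and 1108 and 1223 at 24 h (log2 difference 2.81, SE 0.14). Pdk4 read 1247 and 1031 at 4 h, against 301 and 378 at 1 h, 237 and 254 at 8 h and 46.1 and 80.5 at 24 h (log2 difference 2.73, SE 0.26). For both genes the 4 h arrays were the highest of the 10. Slc16a6 differed by 2.89 (SE 0.32) and Gtf2ird1, a transcription factor of the TFII-I family, by 3.34 (SE 0.41), and the Gtf2ird1 call ended without the first 4 h array (adjusted p = 0.06).

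In the other direction, Dbp read 31.2 and 16.1 at 4 h, against 599 and 521 at 1 h, 366 and 255 at 8 h and 933 and 663 at 24 h (log2 difference -3.81, SE 0.23, adjusted p = 0.000196). The 4 h livers alone had both arrays under the floor for Dbp. G0s2 read 23.1 and 46.7 at 4 h, against 341 and 293 at 1 h, 575 and 545 at 8 h and 427 and 382 at 24 h (log2 difference -3.33, SE 0.15). Slc25a30 read 62.6 and 47.7 at 4 h, against 1522 and 824 at 1 h, 398 and 407 at 8 h and 159 and 154 at 24 h (log2 difference -2.92, SE 0.24). Both genes were lowest at 4 h among the 10 arrays. Pnlip on its dimmer probe set and Cela2a, the pancreatic genes of this group, differed by -3.61 and -2.33. The brighter Pnlip probe set read 312 and 247 at 4 h, against 308 and 255 at 24 h, and overlapped. The 2 comparisons share the 4 h arrays and are not independent. Ces2e, low against sham, read 73.2 and 67.3 at 4 h, against 58.1 and 35.1 at 1 h, 89.9 and 31.3 at 8 h and 100.1 and 105 at 24 h (log2 difference 0.12, SE 0.34, adjusted p = 0.905).

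**Figure D5:**
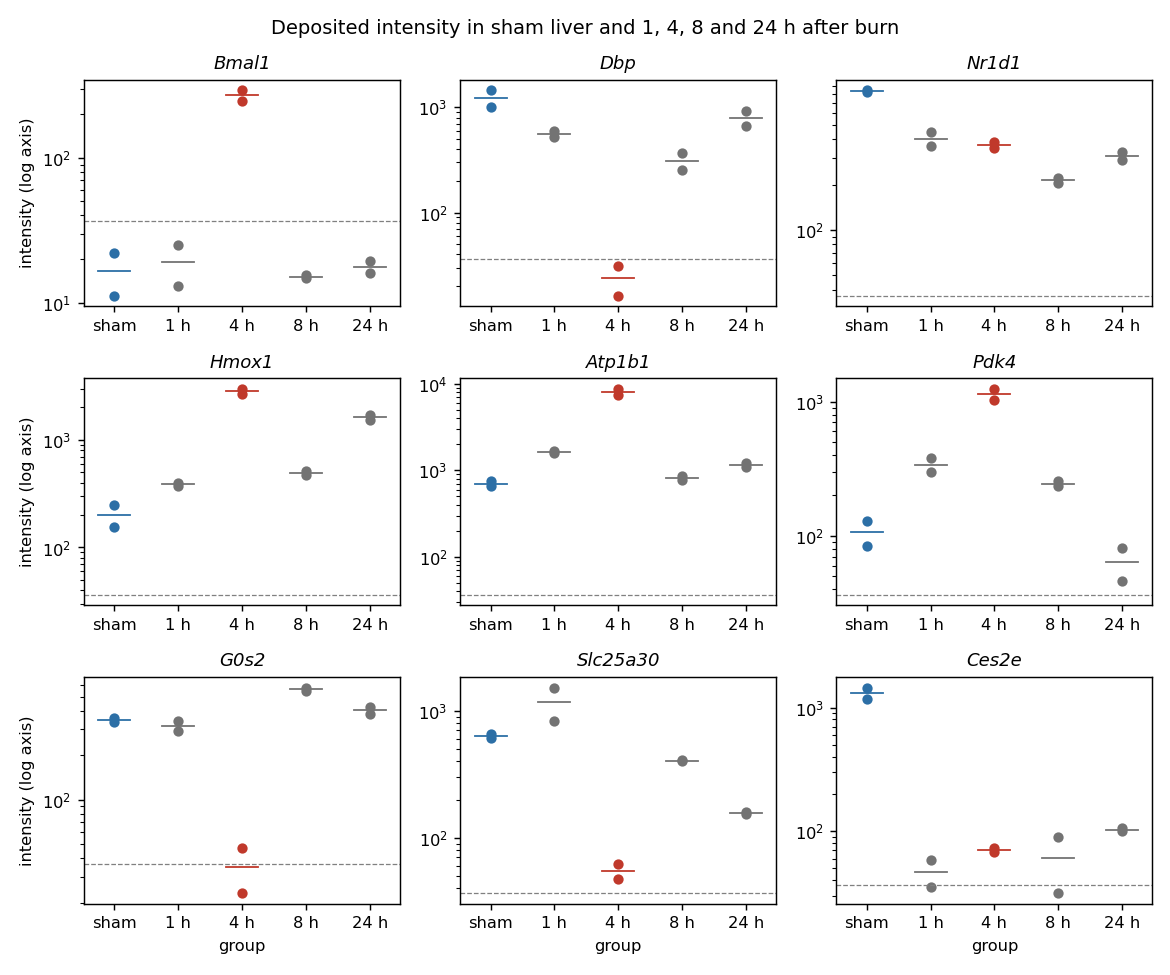
Deposited intensity on a log axis of 9 named genes in sham liver and 1, 4, 8 and 24 h after burn, each point 1 array, the short line the mean of the 2 arrays, the dashed line the floor of 36.4. Bmal1, Atp1b1 and Pdk4 peak at 4 h, Dbp, G0s2 and Slc25a30 are lowest at 4 h, and Ces2e is low at every burn time.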

How the data were processed

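Gene expression was measured with expression arrays on liver RNA of sham rats and of rats 1, 4, 8 and 24 h after a burn, 2 arrays per group. The deposited intensities were linear, 1 for each probe set of an array, and the authors had scaled them to a trimmed mean of 500.9 to 501 (read from the values). The sources used here do not name the software. Probe sets were named from the platform annotation: of 8799, 7018 had 1 gene symbol, 308 several and 1473 were not listed.

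A floor of 36.4 (25th percentile, median over arrays) was set, and log2 values were taken. Probe sets above their array's median on at least 2 of 10 arrays were tested (5285 probe sets, 3143 genes). All 5 groups entered a single limma 3.58.1 model (R 4.3.3; lmFit, eBayes, 5 residual degrees of freedom, no covariate), two-sided, with Benjamini-Hochberg adjustment over all probe sets tested. SE is the standard error of a log2 change in that model. Folds are ratios of geometric means after the floor. Arrays of a group had 24 (4 h) and 15 (sham) identical values, so none was a copy of another.

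Named genes were the 15 that increased most and the 15 that decreased most among those called that did not overlap and stayed called without any 1 of the 4 arrays. To these were added the called members of each list, at most 6, every tested clock gene, and 5 genes in each direction for 4 h against the other burn times. In lists a gene counted by its probe set with the highest mean. The members, lists and rules were chosen with earlier results of these data known. The lists had 28 processes and 12 cell types. On simulated data for 4 h against sham (5295 probe sets), the model called 30.1% of 2-fold and 71.7% of 4-fold changes with 6 false calls. For 4 h against the other burn times it called 49.5% and 81.8%, with 17 false calls. Only a small part of the probe sets was given a change, and false calls were counted among the rest.

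The alternatives were quantile normalization, floors at the 10th and 50th percentiles, no filter, limma's trend and robust options, a replicate block, a fit of only the groups compared, only plain probe set designs, no acinar marker genes, no 1 h arrays, and each array left out in turn.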

Additional observations from a re-analysis of the deposited data

Results flagged for a closer look

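Each of these genes had a different level at 4 h than at the other burn times together, by limma's test of that difference. The log2 differences of 4 h minus the mean of 1, 8 and 24 h were 3.34 for Gtf2ird1, 2.89 for Bmal1, 2.89 for Slc16a6, 2.81 for Atp1b1 and 2.73 for Pdk4. In the other direction they were -3.81 for Dbp, -3.61 for Pnlip, -3.33 for G0s2, -2.92 for Slc25a30 and -2.33 for Cela2a. Both 4 h arrays lay beyond all 6 other burn arrays for each gene on the probe set that named it, which the rule required. Gtf2ird1 read 595 and 472 at 4 h, against 123.6 and 26.8 at 1 h, 6.6 and 8.7 at 8 h and 52.9 and 64.9 at 24 h. Without the first 4 h array its adjusted p in limma was 0.06. Pnlip, on the dimmer of its 2 called probe sets, read 32.6 and 7.5 at 4 h, against 2529 and 2466 at 1 h, 492 and 498 at 8 h and 62.5 and 80.2 at 24 h. Cela2a read 292 and 294 at 4 h, against 5097 and 6764 at 1 h, 1623 and 1514 at 8 h and 382 and 315 at 24 h. On these probe sets the 24 h arrays were the next lowest for both pancreatic genes. The brighter Pnlip probe set overlapped between these times, with 312 and 247 at 4 h, against 308 and 255 at 24 h.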

How the results depend on the processing

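None of the 116 gene results changed sign under an alternative that covered it. The arrays compared did not overlap for any of them, so most alternatives, left-out arrays among them, could not change a sign. Plain designs and the fit without acinar genes covered fewer of these results. Higher calls did not outnumber lower ones in 4 settings. The 230 calls of 4 h against sham (125 higher, 105 lower) became 374 with the floor at the 50th percentile (185 higher, 189 lower), 380 with an intensity trend and robust variance (184 higher, 196 lower), 69 with only the 4 arrays fitted (37 higher, 32 lower) and 114 with plain probe set designs alone (58 higher, 56 lower), where 3180 probe sets were tested. Leaving out 1 array gave 125 to 222 calls, 60 to 126 higher and 50 to 97 lower, with 61 higher and 69 lower without the first 4 h array and 60 higher and 65 lower without the second. The 259 calls against the other burn times became 407 with the trend and robust variance, 134 with plain designs, and 108 to 225 with 1 array left out, the lowest being 114 and 108 without the first and the second 4 h array. Deviations of equal replicate numbers correlated at 0.0111 to 0.17 over 10 pairs of groups (0.115 for 4 h with sham), all positive and 5 of them over 0.1. The labels give no basis for pairing, so this is only a hint from the data. With the replicate block 240 probe sets were called against sham and 262 against the other burn times, and 7 gene results no longer passed: Arg1, Mug1, Por, Erbb3, Sult2a1, Ccnd1 and Top2a (adjusted p = 0.0514 to 0.0655). Counts stayed within 1.5 times with quantile normalization, the floor at the 10th percentile, no filter, no acinar genes and no 1 h arrays. Of the gene results, 62 were no longer past the threshold with only the groups compared, 41 to 46 without 1 of the 4 arrays, and 2 with quantile normalization. Where 1 array of a group remained, its spread was taken from the other groups. Beyond the number of arrays, signal near the floor limits the size of large decreases. The cause of the moved counts was not tested, other than the fewer arrays or probe sets in those fits.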

Other observations

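Outside the lists and the genes with the largest changes, 13 named genes stayed called without any 1 of the 4 arrays, 11 higher and 2 lower. Sdc4, a heparan sulfate proteoglycan of the cell surface, read 15764 and 15860.4 on the 4 h arrays, against 4209 and 3942 on the sham arrays (log2 change 1.96, SE 0.19, limma adjusted p = 0.00181). Rhob, a small GTPase of the cytoskeleton, read 319.8 and 358 on the 4 h arrays, against 73.4 and 91.1 on the sham arrays (log2 change 2.05). Gjb2, a gap junction protein of hepatocytes, read 961 and 1025 on the 4 h arrays, against 322 and 305 on the sham arrays (1.66). Cnn3, an actin-binding calponin, fell by 2.13 on the log2 scale, with 163 and 135 on the 4 h arrays, against 673 and 625 on the sham arrays.

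Ctsl, a lysosomal protease, had a log2 change of 1.65, Sephs2, an enzyme that makes the selenium donor of selenoproteins, 1.70, and Chka, choline kinase alpha, 1.52. Fabp5, a fatty acid binding protein, had 1.70, Ptp4a1, a phosphatase, 1.88, and Gnl3, nucleostemin, 1.48. Angpt2, a ligand of the endothelial TIE2 receptor, had 1.91 and Klk1c12, a kallikrein, 2.04, both at dim signals whose calls ended with a floor at the arrays' 50th percentile (adjusted p = 0.297 and 0.409). RT1-S3, a class Ib histocompatibility gene, fell by 1.48 on the log2 scale. With only the 4 arrays fitted, Klk1c12, Ptp4a1, Fabp5, Gjb2, Ctsl, Chka, Gnl3 and RT1-S3 were no longer called (adjusted p = 0.0516 to 0.0915). Another 48 called probe sets had no single gene symbol and were left unnamed.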
